A study of Rattus norvegicus with 24 samples.

Results

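The uninjured dorsal horn of adult rats was compared with that of neonatal rats, on the 12 arrays of sham-operated animals among the 24 arrays of a study of peripheral nerve injury. The 6 arrays titled adult sham were set against the 6 titled P10 sham, and every probe set that is not a control, 15866 in all, entered the comparison. Both groups were Sprague-Dawley rats. The adults were 8 to 12 weeks old. The neonates were at postnatal day 10, and the labels do not say whether this was the age at surgery or at collection. Under isoflurane the sciatic nerve was exposed and left untied, and the pups were returned to their mothers, so both groups had been anaesthetised and operated on and neither was a naive animal. The tissue was the dorsal horn on the operated side, and the series title places collection 7 days after the operation of the injured animals. The remaining 12 arrays held adults and neonates after spared nerve injury (SNI). In that operation 2 of the branches of the sciatic nerve, the tibial and the common peroneal, are tied off and cut, and the sural branch is spared. They are used below only as separate animals in which the age difference was measured a second time.

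The dorsal horn receives the sensory fibres of the skin, muscle and viscera, and its local excitatory and inhibitory neurons process their input before it reaches the brain. After birth this tissue is still being built: axon growth ends, oligodendrocyte precursors become myelinating cells, astrocytes and microglia take on their adult form, and vessels and matrix settle. Synaptic receptors and channels are known to exchange neonatal subunits for adult ones during the same period.

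The arrays carried transcripts typical of this tissue at both ages, though not all of those chosen for this check. Penk, the precursor of the opioid enkephalins of dorsal horn interneurons, stood at 13.18 ± 0.12 log2 in adults and 13.18 ± 0.10 in neonates (SD, n = 6). Slc17a6, the vesicular glutamate transporter of excitatory neurons, and Gad1, which makes GABA, lay above 10 log2 on every array of both groups. Tlx3, a transcription factor also chosen for the check, had a mean of 2.09 log2 at both ages and was not detected above background. Of 21 genes of primary sensory neurons on the array 9 passed the filter on low values, among them Prph and Calca, and 12 did not, among them Scn10a and Trpv1. All values are the log2 expression values that the authors deposited. The test covered probe sets with values above 3.84 log2, the 40th percentile of all values, on 6 or more arrays. This left 9638 probe sets, which stand for 7006 named genes. A gene was counted as risen or fallen if its adjusted p in limma was below 0.05, and it was represented by its tested probe set with the highest mean.

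Age separated the 2 groups of arrays on the first principal component, which held 38.0% of the variance, with all adult arrays on one side and all neonate arrays on the other. Of the 7006 genes 551 rose from neonate to adult and 602 fell, which is 16.5% of the genes tested, or 7.86% higher and 8.59% lower. Counted by probe set, 1573 of 9638 passed (16.3%), 724 higher (7.51%) and 849 lower (8.81%). In 606 genes, 8.65% of those tested, the 6 adult and 6 neonate arrays did not overlap, 4.54% with all adult arrays higher and 4.11% with all adult arrays lower, and 564 of the 606 passed the test. The changes were mostly small. The median difference was 0.56 log2 among genes that rose and -0.48 among those that fell, against -0.03 over all genes tested, and the median standard error was 0.12. At least 2-fold, 97 genes rose (1.38%) and 56 fell (0.799%), at least 4-fold 20 rose and 8 fell, and at least 8-fold 5 rose and 1 fell. The largest rises were thus larger than the largest falls. Which direction held more genes depended on the scaling: 583 rose and 549 fell with arrays centred on the median, and 635 rose and 545 fell after a second quantile normalization.

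**Figure D1:**
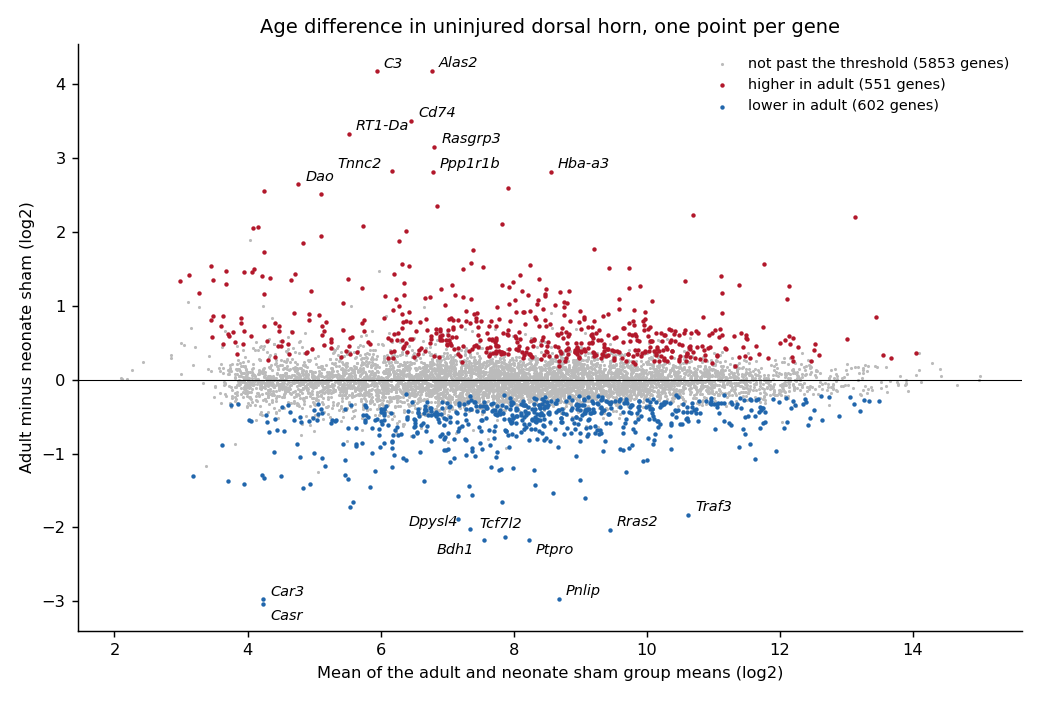
Each point is a gene, with the mean of the adult and neonate sham group means (log2) on the horizontal axis and adult minus neonate sham (log2) on the vertical axis; 551 genes in red rose and 602 in blue fell past an adjusted p of 0.05. The labelled genes have the largest differences among genes whose arrays did not overlap. They include Alas2 and C3 at the top and Casr, Car3 and Pnlip at the bottom, and the extreme genes lie at low or middle levels.

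The spread within a group was alike at the 2 ages. The median SD of a probe set was 0.19 log2 in adults and 0.20 in neonates, and 49.7% of the probe sets had the larger SD in adults. Array medians ran from 5.57 to 5.66 log2. On the second component the adult and the neonate array numbered 3 stood apart together at 21.6 and 22.1, while the others lay between -17.3 and 5.5. Neonate sham 3 also had the lowest mean among neonates over the collagen, meningeal and Schwann cell lists described below, and counts for those lists are given with and without it.

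The same age difference was measured in the injured animals, which share no array with the sham groups. All 551 genes that rose in sham had the same sign there, and 428 of them also passed the test, which is 77.7% of the sham calls and 63.2% of the 677 genes that rose with age after SNI. Of the 602 that fell, 597 had the same sign and 470 passed, or 78.1% of the sham calls and 56.2% of the 837 after SNI. Over all genes, 21.6% passed in the SNI arrays. A test of the difference between the age effects passed in 18 genes, 0.257% of those tested, and 4 of these were among the genes that changed in sham: Plac8, Plek, Tmem176a and Cd53. The age difference seen in sham was thus mostly present again in a second set of animals, all of which had a nerve injury.

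Among genes whose arrays did not overlap between ages, the 15 that rose most came from complement, antigen presentation, blood, signalling and metabolism. C3, the protein on which all complement pathways converge, ran from 3.25 through 3.84 to 4.63 log2 in neonates and from 6.47 through 8.28 to 8.57 in adults. The groups did not overlap, which the rule for naming these 15 genes required. For C3 the lowest adult array was adult sham 3. C3 rose by 4.17 log2, or 18.1-fold (SE 0.31, adjusted p = 1.3e-09), and the difference in the injured animals was 4.29. Only 3 of the 6 neonate values exceeded the filter level, and near that level the background model affects a fold. Because whole tissue was measured, more RNA per cell and more cells of a type cannot be told apart, here and in every result that follows.

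Rasgrp3, an exchange factor that activates Ras proteins, had the tightest adult values of these genes. It lay between 4.54 and 5.95 log2 in neonates (median 5.27) and between 8.27 and 8.63 in adults (median 8.32), and it rose by 3.15 log2 (SE 0.25, adjusted p = 3.6e-09). Ppp1r1b, the dopamine- and cAMP-regulated inhibitor of protein phosphatase 1 also called DARPP-32, ran from 4.40 to 6.10 log2 in neonates (median 5.48) and from 7.62 to 8.70 in adults (median 8.19), a rise of 2.81 log2 (SE 0.33, adjusted p = 1.5e-06) with 3.01 in the injured animals. Dao, the D-amino acid oxidase that degrades D-serine, lay between 2.92 and 4.07 log2 in neonates and between 5.74 and 6.75 in adults. Only 1 neonate array of Dao exceeded the filter level against all 6 adult arrays, and the rise was 2.64 log2 (SE 0.29, adjusted p = 7.9e-07). In each of these 3 genes every adult array was above every neonate array, as the rule for naming them required.

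Aldh1a1, which makes retinoic acid from retinal, rose by 2.59 log2 from a neonate range of 5.66 to 6.98 to an adult range of 9.01 to 9.52 (SE 0.20, adjusted p = 2.0e-09). Anxa4, a calcium-dependent membrane-binding annexin, rose by 2.35 log2 (SE 0.25, adjusted p = 3.5e-07), and its second probe set rose by 2.11. Paqr6, a membrane receptor for progesterone, rose from 6.78 ± 0.80 to 8.88 ± 0.27 log2 (SD, n = 6; adjusted p = 4.5e-06). Smim5, a small membrane protein, lay below the filter level on all neonate arrays and above it on all adult arrays, and was at least 3.21-fold higher in adults (adjusted p = 8.6e-11). In this last case the adult mean was set against the filter level, which gives a lower bound. Rsad2, Tmem63a and RT1-N2 were the other genes with 6 adult arrays and 0 neonate arrays above that level.

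Among genes whose arrays did not overlap, the 15 that fell most included an ion-sensing receptor, enzymes of lipid and ketone metabolism and signalling proteins. Casr, the calcium-sensing receptor, lay between 5.07 and 6.28 log2 in neonates (median 5.78) and between 2.29 and 3.01 in adults (median 2.88). Car3, a carbonic anhydrase, lay between 4.93 and 6.50 log2 in neonates (median 5.72) and between 2.58 and 2.90 in adults (median 2.79). Both passed the filter level on all 6 neonate arrays and on 0 adult arrays, and Casr was at least 3.77-fold and Car3 at least 3.69-fold lower in adults (adjusted p = 6.2e-11 and 5.2e-10). Cd93 and Ppp1r3d were the other 2 genes with this pattern.

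Pnlip, named for the pancreatic lipase that splits triglycerides, was well above the filter level at both ages. It ran from 9.80 through 10.11 to 10.71 log2 in neonates and from 6.77 through 7.25 to 7.53 in adults. It fell by 2.97 on the log2 scale (SE 0.16, adjusted p = 4.9e-12), and the SNI arrays gave -3.04. Bdh1, the mitochondrial enzyme that interconverts the ketone bodies, ran from 8.46 to 9.02 log2 in neonates (median 8.55) and from 5.79 to 7.07 in adults (median 6.45). It fell by 2.17 (SE 0.24, adjusted p = 9.4e-07), and its second probe set fell by 2.07. Neonatal rats live on fat-rich milk, and their brain is known to use ketone bodies as fuel.

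The other large falls were in signalling and cytoskeletal genes. Traf3, an adaptor of tumour necrosis factor and interferon signalling, had the narrowest neonate range of the 15, from 11.49 to 11.63 log2, with a mean of 9.71 ± 0.28 in adults against 11.54 ± 0.0503 in neonates (SD, n = 6). Rras2, a small GTPase of the Ras family, fell by 2.03 on the log2 scale from 10.46 ± 0.22 to 8.42 ± 0.21 (SD, n = 6; adjusted p = 7.5e-12). Ptpro, a receptor tyrosine phosphatase of growing axons, fell by 2.17 (SE 0.17, adjusted p = 3.7e-09), and Tcf7l2, a transcription factor of the Wnt pathway that newly forming oligodendrocytes express, fell by 2.13 (SE 0.24, adjusted p = 9.6e-07). Dpysl4, a collapsin response mediator protein of growing axons, fell by 2.03 (adjusted p = 8.2e-08), and its lowest adult array was adult sham 3 at 5.23 log2. In all 15 genes the arrays of the 2 ages were separate, as the rule for naming them required.

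**Figure D2:**
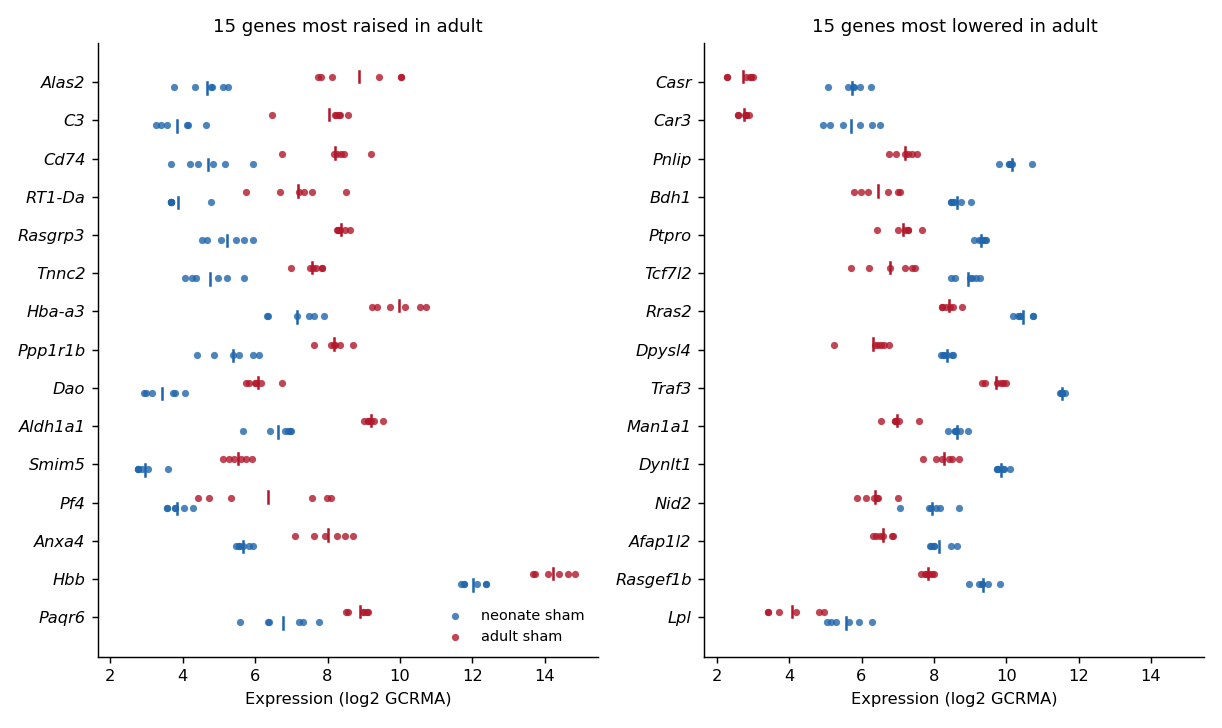
Points are single arrays (log2 expression, horizontal axis) of the 15 genes with the largest rise and the 15 with the largest fall among genes whose arrays did not overlap; blue marks neonate sham, red adult sham, and the short bar the group mean of 6 arrays. Smim5 is at the bottom of the scale in neonates, and Casr and Car3 are there in adults, while Traf3 and Rras2 differ at high levels with little spread.

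Among lists with 7 or more tested members, the interferon and MHC lists had the highest shares of rises. Microglia and other cells of the tissue present peptides on MHC proteins, and interferons raise both these proteins and a set of antiviral genes. Of 21 interferon response genes on the array 11 passed the filter on low values, and 7 of these rose and 0 fell, against 7.86% of all genes that rose. Their median difference was 0.83 log2, against -0.03 over all genes. Of 14 tested MHC genes 7 rose and 0 fell (median 0.64). Counts over tested members describe only those that passed the filter, since a dim gene that is high in 1 group passes through that group.

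Short windows of the promoters are shown for 8 of these genes because most of the interferon genes that rose carry the same 10-base motif there. The motif searched was 2 copies of GAAA with any 2 bases between them, the core of the interferon-stimulated response element, on both strands (2 copies of TTTC on the other strand, with the same gap), in the 300 bases from 250 before to 50 after each gene's start. Sequences are from RefSeq on the assembly GRCr8, 5′ to 3′ in the direction of the gene, with the first match of the motif in capitals.
Rsad2, chr6:48788238-48788287, minus strand: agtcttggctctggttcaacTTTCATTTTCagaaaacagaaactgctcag
Bst2, chr16:18255069-18255118, minus strand: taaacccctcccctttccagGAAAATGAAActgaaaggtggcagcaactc
RT1-S3, chr20:2675396-2675445, plus strand: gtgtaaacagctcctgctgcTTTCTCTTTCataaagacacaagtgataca
Ifi27, chr6:128355123-128355172, plus strand: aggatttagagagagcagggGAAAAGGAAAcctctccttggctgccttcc
Irf7, chr1:205800063-205800112, minus strand: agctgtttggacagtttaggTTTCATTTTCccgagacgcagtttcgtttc
Ifitm3, chr1:205541773-205541822, minus strand: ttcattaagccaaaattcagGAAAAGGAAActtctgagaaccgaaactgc
B2m, chr3:129549160-129549209, plus strand: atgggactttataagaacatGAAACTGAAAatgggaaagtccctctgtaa
Psme2, chr15:33052775-33052824, minus strand: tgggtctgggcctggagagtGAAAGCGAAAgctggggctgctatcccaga

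The middle of the motif lies upstream of the gene start in the 8 windows shown, from 39 bases away in Ifitm3 to 164 bases in Ifi27. Psmb8, which also rose and holds the motif, is not shown, because its match lies 1 base downstream of the start. Bst2 and Ifi27 hold 2 matches each. In Bst2 the second overlaps the first and also lies in the window, partly in lower case. In Ifi27 only 1 is shown. Among interferon genes that rose, 5 of the 6 with a promoter in the table held the motif, and Stat2 did not. Of all tested interferon genes 8 of 10 held it (80.0%), so it was also present in genes of the list that did not pass. Among MHC genes that rose, 4 of 7 held it, and among all 13 tested with a promoter also 4. Of all 27457 promoters 3.77% held a match. Among tested genes the share was 2.42% of 5898, among genes that rose 4.49% of 445 and among those that fell 1.82% of 494. It was 11.7% of the 77 genes that rose at least 2-fold and 2.17% of the 46 that fell at least 2-fold. Of the 20 genes that rose and held a match, 9 belong to the interferon and MHC lists. The 9 that rose at least 2-fold include Rsad2, Psmb8, Bst2, RT1-S3, Ifi27, Irf7 and Ifitm3. These shares thus restate the 2 lists in part. A match is a string of letters and says nothing of binding in this tissue.

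Rsad2, the antiviral protein viperin, rose most of the interferon genes. It lay between 3.03 and 3.29 log2 in neonates, below the filter level on all arrays, and ran from 3.94 through 4.83 to 6.65 in adults, which is at least 2.55-fold higher (adjusted p = 1.8e-04). Ifi27, a mitochondrial interferon-induced protein, was abundant at both ages and rose by 1.28 log2, from a neonate range of 10.36 to 11.05 to an adult range of 11.44 to 12.55 (SE 0.16, adjusted p = 3.2e-06). Ifitm3, a membrane protein that blocks viral entry, rose by 1.15 log2 (adjusted p = 3.4e-06) with 1 adult array, adult sham 3 at 8.05 log2, inside the neonate range. Stat2, which carries the signal of type I interferon to the nucleus, rose from 6.65 ± 0.17 to 7.48 ± 0.18 log2 (SD, n = 6; adjusted p = 1.2e-05). Its second probe set differed by 0.09 log2 and did not pass. Bst2 and Irf7 were not above the filter level on any neonate array and were above it on 4 and 3 adult arrays, so their differences of 1.42 and 1.17 log2 (adjusted p = 3.9e-04 and 0.00164) are not well measured. With all values below the filter level raised to it, 5 of the 11 interferon genes rose.

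The 2 largest rises on the list were in genes of MHC class II, the molecules that present peptides to helper T cells. Cd74, the invariant chain, ran from 3.66 through 4.63 to 5.93 log2 in neonates and from 6.74 through 8.32 to 9.19 in adults. It rose by 3.51 log2, or 11.4-fold (SE 0.39, adjusted p = 8.3e-07). RT1-Da, a class II alpha chain, was above the filter level on 1 neonate array and on all 6 adult arrays, and rose by 3.33 log2 (SE 0.41, adjusted p = 3.1e-06). The other class II genes tested, RT1-Db1, RT1-DMa and RT1-DMb, had differences of 0.70, 0.06 and 0.18 log2 and did not pass. Class II genes thus differed by very unequal amounts.

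Genes of MHC class I, which is present on most cells, and of its peptide supply also rose. B2m, the light chain shared by all class I molecules, rose by 0.59 log2 from a neonate range of 11.76 to 11.95 to an adult range of 12.15 to 12.93 (SE 0.10, adjusted p = 1.4e-04), and its second probe set rose by 0.63. RT1-S3 and RT1-M3-1, non-classical class I genes, rose by 1.37 and 0.70 log2 (adjusted p = 3.2e-04 and 1.0e-04). Psmb8 and Psme2, a subunit and an activator of the immunoproteasome that cuts peptides for class I, rose by 1.48 and 0.54 log2 (adjusted p = 0.00138 and 0.00724). RT1 genes have near-identical copies that the probes may not tell apart, so single RT1 names are uncertain. Adult sham 3 had the lowest adult mean over both the interferon and the MHC list, at 5.90 and 6.38 log2, and both values lay above every neonate array. The MHC count of 7 was the same without any 1 of the 12 arrays.

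Microglial genes differed less than antigen presentation genes. Microglia are the resident macrophages of the spinal cord. Of 24 tested genes 8 rose and 0 fell, with a median of 0.37 log2 and 21 differences above 0. Lyz2, lysozyme, rose by 1.51 log2 from a neonate range of 7.73 to 9.12 to an adult range of 9.43 to 10.81 (SE 0.21, adjusted p = 1.6e-05). Ctss, a lysosomal protease that processes the invariant chain, rose by 0.63 log2 (adjusted p = 0.0012), Laptm5 by 0.83 log2 (adjusted p = 8.2e-04) and Csf1r, the receptor on which microglia depend for survival, by 0.52 log2 (adjusted p = 0.0201). Tyrobp, the signalling adaptor of Trem2, passed (adjusted p = 4.7e-04) but lay above the filter level on 5 adult and 0 neonate arrays. It did not pass with values below that level raised to it (adjusted p = 0.149). The identity markers of resting microglia did not pass: Aif1 differed by 0.42 log2 (adjusted p = 0.0896), P2ry12 by -0.20 (adjusted p = 0.559) and Tmem119 by 0.24 (adjusted p = 0.624). The mean over the list ran from 5.54 to 5.81 log2 in neonates and from 5.81 to 6.13 in adults, where adult sham 3 was the lowest.

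Complement genes other than C3 moved less. C1qa, a chain of the initiator of the classical pathway, rose by 0.77 log2 (adjusted p = 0.0149), while C1qb and C1qc differed by 0.64 and 0.35 log2 and did not pass. Serping1, the inhibitor of C1, rose by 0.76 log2 (adjusted p = 0.0104), but not with values below the filter level raised to it. Masp1, a protease of the lectin pathway, fell by 0.99 on the log2 scale (SE 0.18, adjusted p = 4.3e-04). None of the lymphocyte genes on the array passed the filter. Cd3d, Cd3g, Cd8a and Cd79b were at the floor of the values, and Lck and Prf1 lay above it at means of 2.91 and 3.39 log2 in adults and 2.90 and 3.26 in neonates.

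**Figure D3:**
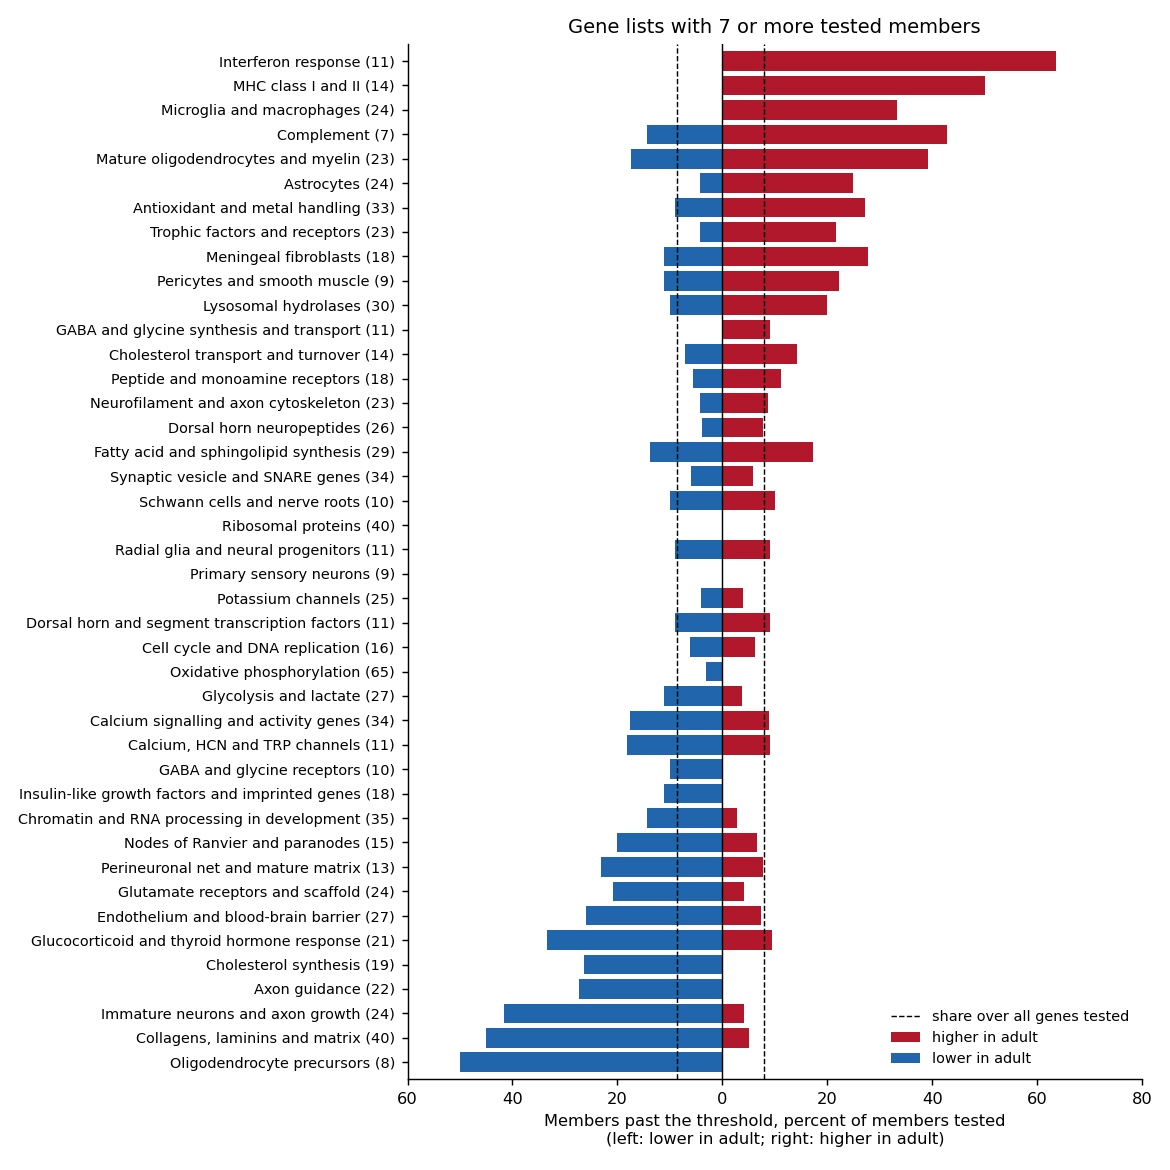
Bars give the percent of tested members (number in brackets) that rose (red, right) or fell (blue, left) from neonate to adult sham, for lists with 7 or more tested members; dashed lines mark the shares over all 7006 genes, 7.86% and 8.59%. Interferon and MHC genes stand at the top with 7 of 11 and 7 of 14 members higher, and oligodendrocyte precursor, collagen and axon growth genes stand at the bottom.

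Oligodendrocyte genes separated into those that rose and those that fell. Myelin is the membrane sheath that these cells wrap around axons, and in the rat spinal cord much of it forms around and after birth. Of 23 tested genes of mature oligodendrocytes and myelin 9 rose and 4 fell (median 0.17 log2). The structural proteins of compact myelin were not among them. Mbp, myelin basic protein, ran from 14.79 to 15.17 log2 in neonates and from 14.88 to 15.22 in adults, a difference of -0.01 (SE 0.08, adjusted p = 0.954). Mog, on the outer surface of the sheath, differed by -0.13 log2 (SE 0.11, adjusted p = 0.506). These 2 genes stand near the top of the intensity range, where an array can understate a difference.

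The genes that rose were enzymes and less known proteins of oligodendrocytes. Qdpr, which regenerates tetrahydrobiopterin, ran from 10.86 through 10.96 to 11.17 log2 in neonates and from 12.29 through 12.47 to 12.84 in adults. It rose by 1.56 log2, or 2.95-fold (SE 0.11, adjusted p = 3.3e-10). Ndrg1 rose by 1.27 log2 (adjusted p = 1.4e-06), Plekhb1 by 1.09 log2 (adjusted p = 4.8e-06), and Klk6, a secreted protease of mature oligodendrocytes, by 1.07 log2 (adjusted p = 6.7e-05). None of these 4 genes overlapped between ages. Apod, a lipid carrier, rose by 0.56 log2 from 12.73 ± 0.22 to 13.29 ± 0.18 (SD, n = 6; adjusted p = 0.00106).

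Other genes of the list fell. Sirt2, a deacetylase of the myelin sheath, ran from 12.14 through 12.46 to 12.68 log2 in neonates and from 11.25 through 11.42 to 11.67 in adults, and it fell by 0.97 (SE 0.12, adjusted p = 2.2e-06). Tspan2, a tetraspanin of early myelin, fell by 0.65 (adjusted p = 2.0e-04), Cnp, an enzyme of non-compact myelin, by 0.43 (adjusted p = 6.3e-04), and Mag, an adhesion protein that faces the axon, by 0.51 (adjusted p = 0.0151). Without both arrays numbered 3 Mag did not pass. Mobp, a basic protein of compact myelin, gave opposite calls: of its 3 probe sets 1 rose by 0.35 log2 (adjusted p = 0.0409), 1 differed by 0.17, and 1 fell by 0.82 (adjusted p = 2.3e-06). It was 1 of 3 genes, with Mmp24 and Tpm1, whose probe sets passed in both directions.

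Oligodendrocyte precursors are the dividing cells from which myelinating cells arise. All 8 of their tested genes were lower in adults, with differences from -1.02 to -0.19 log2, and 4 fell against 8.59% of all genes. Pdgfra, the receptor that defines these cells, ran from 9.32 to 10.01 log2 in neonates (median 9.54) and from 8.48 to 9.22 in adults (median 9.08), a fall of 0.68 (SE 0.15, adjusted p = 0.00183). Enpp6, which marks cells that have just begun to differentiate, fell by 0.58 (adjusted p = 6.6e-05), and Tnr, the matrix protein tenascin-R, by 1.02 (adjusted p = 0.00827). Olig1 fell by 0.26 (adjusted p = 0.0449), and its call was lost without any 1 of 9 arrays (adjusted p up to 0.124). The mean over the list was 8.44 ± 0.14 log2 in neonates and 7.89 ± 0.13 in adults (SD, n = 6), with no overlap.

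Genes of the node of Ranvier, where axons carry their sodium channels between stretches of myelin, included large changes in opposite directions. Of 15 tested genes 1 rose and 3 fell. Cntn2, an adhesion protein beside the paranode, rose by 1.85 log2 from a neonate range of 3.68 to 4.40 to an adult range of 5.34 to 6.31 (SE 0.21, adjusted p = 1.4e-06). Its partner Cntnap2 differed by 0.02 log2. Nfasc, which gathers sodium channels at the node, fell by 1.07 (SE 0.10, adjusted p = 2.5e-08) by its brightest probe set, which lay between 11.98 and 12.32 log2 in neonates and between 10.88 and 11.34 in adults. Its 2 other probe sets differed by -0.01 and -0.07 and did not pass, so the probe sets of this gene disagree. The paranodal partners Cntn1 and Cntnap1 fell by 0.64 and 0.36 (adjusted p = 0.00691 and 0.00371).

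Lipid synthesis genes, which supply myelin with cholesterol and long-chain lipids, were partly lower in adults. Of 19 tested genes of cholesterol synthesis 0 rose and 5 fell, with a median of -0.15 log2. Idi1 fell by 0.53 (adjusted p = 3.9e-04), Dhcr7, the last enzyme of 1 branch of the pathway, by 0.69 (adjusted p = 0.00367), and Hsd17b7 by 0.57 (adjusted p = 0.00598). The count was 3 without adult sham 1, adult sham 3, neonate sham 1, neonate sham 4 or neonate sham 5. Among 29 genes of fatty acid and sphingolipid synthesis 5 rose and 4 fell. Elovl6, an elongase, ran from 9.59 to 10.02 log2 in neonates and from 8.53 to 9.15 in adults and fell by 0.96 (SE 0.11, adjusted p = 1.6e-06). Cers2, which makes the very long ceramides of myelin, fell by 0.72 (adjusted p = 7.8e-04), and the desaturases Fads1 and Fads2 by 0.54 and 0.59 (adjusted p = 4.8e-05 and 0.00715). Scd, another desaturase, rose by 0.84 log2 (adjusted p = 0.00451). The count of 5 rises went to 2 without adult sham 4 or neonate sham 6, and to 3 without adult sham 2, neonate sham 1, neonate sham 3 or neonate sham 5.

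Some astrocyte genes rose in adults, by small amounts. Of 24 tested genes 6 rose and 1 fell, with a median of 0.24 log2 and 18 differences above 0. S100b, a calcium-binding protein, rose by 0.85 log2 from a neonate range of 12.70 to 13.55 to an adult range of 13.71 to 13.97 (SE 0.13, adjusted p = 3.3e-05). Clu, the chaperone clusterin, rose by 0.57 log2 (adjusted p = 0.003), Ntsr2, a neurotensin receptor, by 0.60 log2 (adjusted p = 0.00383), and Glul, which converts glutamate to glutamine, by 0.49 log2 (adjusted p = 0.00687). Gfap, the intermediate filament of astrocytes, ran from 13.69 to 14.11 log2 in neonates and from 14.10 to 14.32 in adults and rose by 0.36 (SE 0.09, adjusted p = 0.00939), though not after a second quantile normalization. Aqp4, the water channel of astrocyte endfeet, differed by 0.13 log2 (SE 0.15, adjusted p = 0.631). Slc1a3, a glutamate transporter, fell by 0.34 (adjusted p = 0.0393), a call that was lost without any 1 of 6 arrays (adjusted p up to 0.111).

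Some genes of detoxification rose with age. These enzymes conjugate glutathione to reactive molecules or reduce peroxides and quinones, and glia hold much of this capacity. Of 33 tested genes of antioxidant and metal handling 9 rose and 3 fell, with a median of 0.19 log2. Gsta1, a glutathione transferase, ran from 8.61 through 8.99 to 9.25 log2 in neonates and from 10.20 through 10.49 to 10.78 in adults, a rise of 1.52 (SE 0.16, adjusted p = 4.5e-07). Mgst1, a membrane-bound transferase, rose by 1.04 log2 (adjusted p = 5.3e-06), Nqo1, a quinone reductase, by 0.67 log2 (adjusted p = 1.8e-04) and Gstp1 by 0.63 log2 (adjusted p = 6.5e-04). All 4 were separate between ages. Txn1, thioredoxin, fell by 0.38 (adjusted p = 0.00116), and Slc40a1, the iron exporter ferroportin, by 0.84 (adjusted p = 0.00458). Glutathione transferases have close copies that probes may share.

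Lysosomal hydrolases, the degradative enzymes of all cells, changed in both directions. Of 30 tested 6 rose and 3 fell (median 0.13 log2). Ctsz rose by 1.43 log2 from a neonate range of 4.67 to 6.24 to an adult range of 6.25 to 7.30 (SE 0.24, adjusted p = 1.6e-04), and Tpp1, a peptidase, by 0.63 log2 (adjusted p = 3.8e-04). Npc2, which carries cholesterol out of lysosomes, rose by 0.60 log2 (adjusted p = 3.7e-04). Ctsl and Scarb2 both fell by 0.53 (adjusted p = 0.00163 and 0.00349).

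Many genes of axon growth and young neurons fell. Of 24 tested genes 10 fell and 1 rose, against 8.59% and 7.86% of all genes, with a median of -0.19 log2. Dcx, doublecortin, the microtubule protein of migrating and newly formed neurons, ran from 5.86 through 6.15 to 6.28 log2 in neonates and from 4.40 through 4.81 to 5.29 in adults. It fell by 1.28, or 2.43-fold (SE 0.15, adjusted p = 1.4e-06). Nrep, a regeneration-related protein, fell by 1.10 from a neonate range of 10.04 to 10.72 to an adult range of 9.27 to 9.55 (SE 0.10, adjusted p = 6.4e-08). Marcks, a protein kinase C substrate that ties actin to the membrane in growth cones, fell by 0.82 (adjusted p = 3.1e-06), and its 4 other probe sets fell by 0.96 to 1.49. Mllt11 fell by 0.55 (adjusted p = 3.0e-06) with neonate arrays between 12.84 and 12.96 log2 and adult arrays between 12.27 and 12.45. The count stayed between 9 and 10 without any 1 array.

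Not every growth gene fell. Gap43, the classical growth cone protein, ran from 11.64 to 12.16 log2 in neonates and from 11.49 to 11.81 in adults, a difference of -0.24 (SE 0.10, adjusted p = 0.118). Map1b, a microtubule protein of growing axons, differed by 0.17 log2 (SE 0.09, adjusted p = 0.227). Stmn1, which destabilises microtubules, rose by 0.48 log2 from a neonate range of 12.26 to 12.33 to an adult range of 12.56 to 12.93 (SE 0.07, adjusted p = 4.0e-05), while its relative Stmn2 fell by 0.41 (adjusted p = 0.012). The list therefore held members that moved against its median.

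Axon guidance genes, which code for cues and receptors that steer axons, fell where they changed. Of 22 tested genes 6 fell and 0 rose, with a median of -0.21 log2, and 14 of the 36 on the array did not pass the filter, among them Slit1, Slit2, Slit3 and Dcc. Sema6a, a membrane-bound semaphorin, ran from 7.44 to 7.76 log2 in neonates (median 7.60) and from 6.19 to 6.90 in adults (median 6.37), a fall of 1.11 (SE 0.13, adjusted p = 9.6e-07). Sema5a fell by 0.76 (adjusted p = 0.00178), Sema4f by 0.45 (adjusted p = 0.00115) and Efna5, an ephrin, by 0.45 (adjusted p = 0.00349). For Efna5 the difference in the injured animals was -0.06. The receptors Robo1, Robo2 and Nrp1 differed by -0.19, -0.25 and -0.43 log2 and did not pass.

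The mature cytoskeleton of axons differed little. Neurofilaments set the calibre of large axons, and of 23 genes of the axon cytoskeleton 2 rose and 1 fell. Nefl, Nefm and Nefh, the light, medium and heavy neurofilament chains, differed by 0.17, 0.17 and 0.36 log2 (adjusted p = 0.528, 0.6 and 0.11). Their arrays overlapped: Nefh ran from 13.49 to 14.35 log2 in neonates and from 13.91 to 14.68 in adults. Map1a, the adult counterpart of Map1b, differed by 0.29 log2 (SE 0.17, adjusted p = 0.256). Map4, a microtubule protein, rose by 0.79 log2 (SE 0.16, adjusted p = 0.00129).

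Few inhibitory receptor and transporter genes passed the test, and their number depended on single arrays. Glycine and GABA are the inhibitory transmitters of the dorsal horn, and the glycine receptor is known to exchange its alpha 2 subunit for alpha 1 after birth. Of 10 tested receptor genes 1 fell and 0 rose. The count of falls was 4 without neonate sham 4, 2 without adult sham 3 or neonate sham 1, and 0 without adult sham 2, 5 or 6 or neonate sham 3, 5 or 6. Glra2, the neonatal alpha 2 subunit, ran from 6.68 through 7.26 to 8.20 log2 in neonates and from 5.84 through 6.62 to 7.12 in adults. It fell by 0.78 (SE 0.26, adjusted p = 0.0374), but this call was lost without any 1 of 7 arrays (adjusted p up to 0.112). Glra1, the adult alpha 1 subunit, ran from 5.15 to 7.43 log2 in neonates and from 6.50 to 8.85 in adults, a difference of 0.68 (SE 0.54, adjusted p = 0.439). The 2 subunits had differences of opposite sign, and the arrays of both overlapped between ages.

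The genes that set the effect of GABA through chloride did not pass. Slc12a5, the chloride exporter KCC2, lay between 13.71 and 13.89 log2 in neonates and between 13.66 and 13.83 in adults, a difference of -0.06 (SE 0.08, adjusted p = 0.633). Slc12a2, the importer NKCC1, differed by 0.10 log2 (SE 0.12, adjusted p = 0.617). Of the genes that make and move the inhibitory transmitters, Gad1 differed by 0.06 log2 (SE 0.13, adjusted p = 0.803), and Slc6a5, the neuronal glycine transporter, by -1.25 log2 (SE 0.62, adjusted p = 0.187) with overlapping arrays. Slc6a9, the glial glycine transporter, rose by 0.41 log2 (adjusted p = 0.0424), a call lost without any 1 of 8 arrays (adjusted p up to 0.124).

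Some excitatory receptor and scaffold genes changed, mostly downward, and their number depended on the setting. Of 24 tested genes of glutamate receptors and their scaffold 1 rose and 5 fell, with a median of -0.28 log2. The count of falls was 2 without adult sham 4, and 3 without adult sham 1, adult sham 5, neonate sham 2, neonate sham 5 or neonate sham 6. It was 10 with the replicate number as a block and 3 after a second quantile normalization. Grm3, a metabotropic receptor of astrocytes and nerve endings, rose 2.29-fold from a neonate range of 6.96 to 7.85 to an adult range of 8.35 to 9.08 log2 (SE 0.19 log2, adjusted p = 6.7e-05). Homer1, a postsynaptic scaffold, fell by 0.82 (SE 0.16, adjusted p = 8.4e-04), its second probe set by 0.70, and Shank3, another scaffold, by 0.67 (adjusted p = 0.00164). Slc17a6 fell by 0.27 from 11.70 ± 0.06 to 11.43 ± 0.15 log2 (SD, n = 6; adjusted p = 0.0221), and this call was lost without adult sham 4, 5 or 6 (adjusted p up to 0.0646).

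The subunits of ionotropic glutamate receptors did not pass. NMDA receptors are known to exchange GluN2B for GluN2A subunits during development. Grin2a, which codes for GluN2A, ran from 4.21 to 5.25 log2 in neonates and from 4.01 to 4.45 in adults, a difference of -0.29 (SE 0.15, adjusted p = 0.213), and Grin2b did not pass the filter. Grin2c and Grin2d differed by 0.09 and -0.13 log2. Gria1, Gria2 and Gria3, subunits of AMPA receptors, differed by -0.20, -0.35 and 0.04 log2 (adjusted p = 0.596, 0.0613 and 0.908). Grin2a was too close to the filter level for this array to describe a small change.

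Among ion channels a few genes changed in each direction. Of 6 tested sodium channel genes Scn4b rose, Scn2a and Scn3a fell, and Scn1a, Scn8a and Scn3b did not pass. Scn4b, a beta subunit of fast-firing neurons, rose by 0.85 log2 from a neonate range of 9.71 to 10.92 to an adult range of 10.94 to 11.47 (SE 0.17, adjusted p = 8.5e-04). Scn2a, the channel of immature axons, ran from 9.10 to 9.91 log2 in neonates, had an adult median of 8.99 and fell by 0.63 (SE 0.17, adjusted p = 0.0103). Scn3a, an embryonic channel, fell by 0.57 (SE 0.19, adjusted p = 0.0394), a call lost without any 1 of 7 arrays (adjusted p up to 0.116). Scn8a, the channel of mature nodes, differed by -0.11 log2 (SE 0.35, adjusted p = 0.873) and Scn1a by 0.26 log2 (SE 0.14, adjusted p = 0.213).

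Hcn2, which carries a pacemaker current, rose 2.82-fold, from a neonate range of 5.48 to 7.38 to an adult range of 6.67 to 8.90 log2 (SE 0.37 log2, adjusted p = 0.00685), with overlap. Cacna1b, the N-type calcium channel of nerve endings, fell by 0.57 (adjusted p = 0.00364), and Cacna2d3, an auxiliary subunit, by 0.46 (adjusted p = 0.00961). Of 25 tested potassium channel genes 1 rose and 1 fell. Kcnj11, an ATP-sensitive channel, rose by 0.37 log2 (adjusted p = 0.0141), and Kcnip2, an auxiliary subunit, fell by 0.77 (adjusted p = 0.0146). The count of rises was 3 without adult sham 3 and 3 after a second quantile normalization, and 2 without neonate sham 1, 4 or 5.

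**Figure D4:**
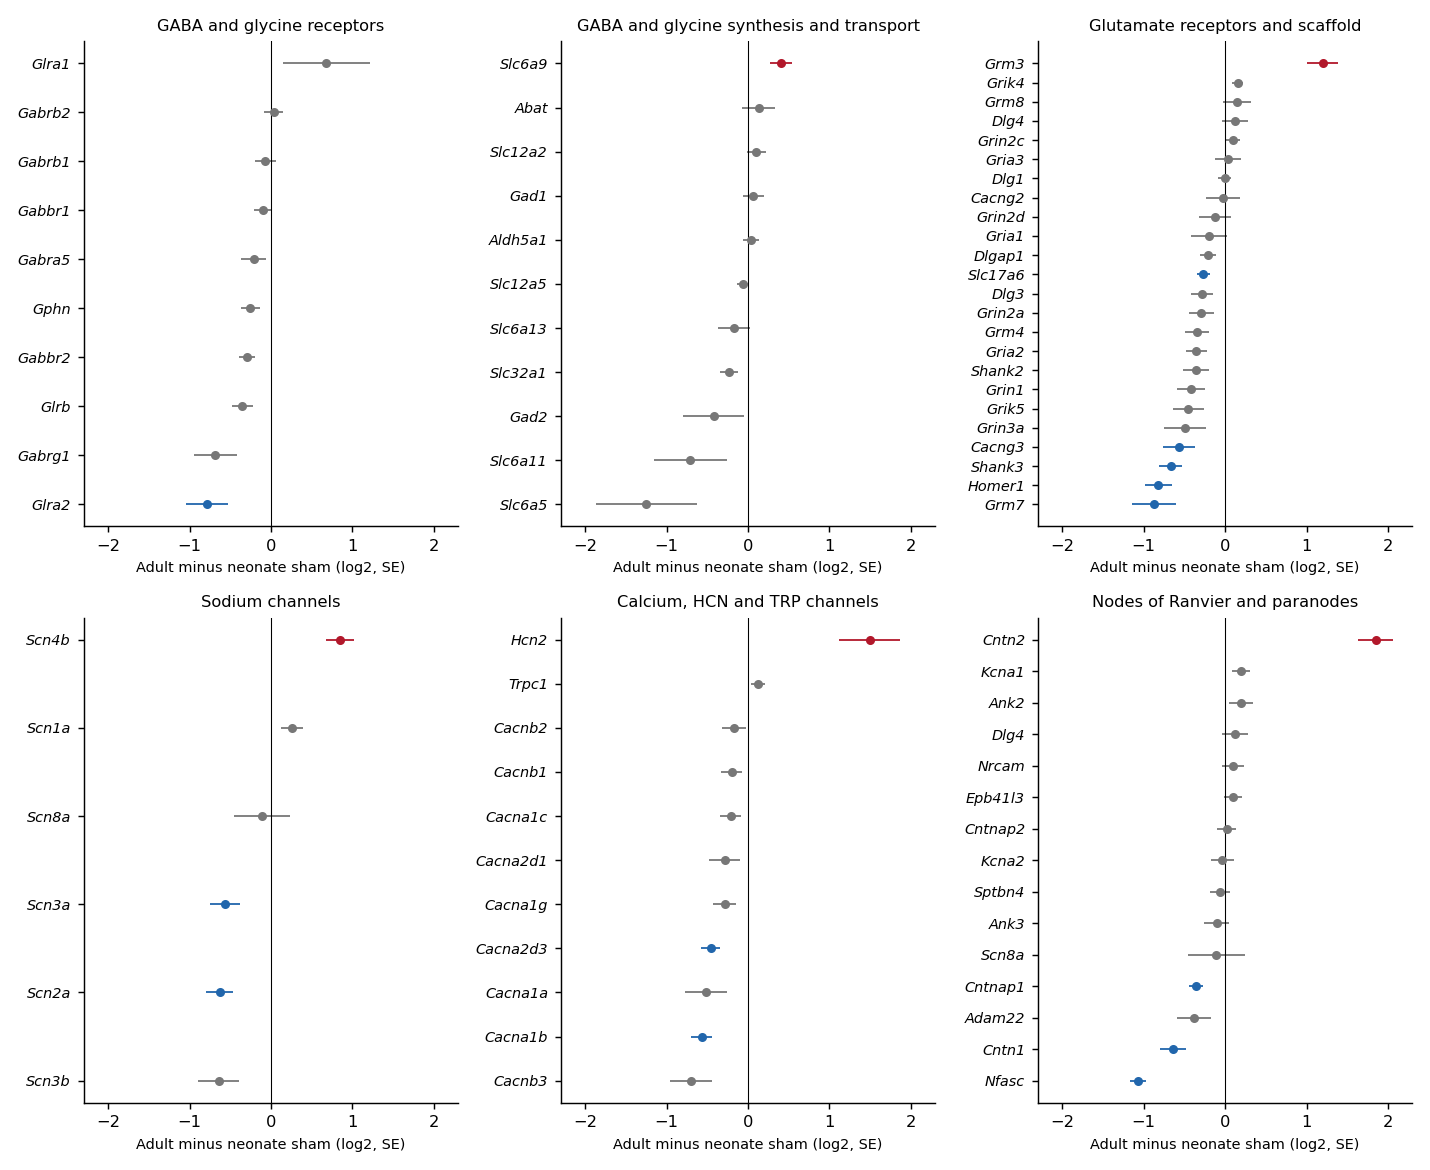
Each point is the difference adult minus neonate sham (log2, horizontal axis) of a tested gene in 6 groups of synaptic, channel and node genes, with its standard error from the fit as a bar; red genes rose, blue genes fell and grey genes did not pass. Most points are grey and lie within 0.5 of 0, and Cntn2, Hcn2 and Grm3 are the largest rises shown.

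Vesicle, peptide and receptor genes differed in few members. Of 34 genes of synaptic vesicles and their fusion machinery 2 rose and 2 fell. Stx1a, a fusion protein of the presynaptic membrane, fell by 1.38 from a neonate range of 6.99 to 7.68 to an adult range of 4.64 to 6.41 log2 (SE 0.25, adjusted p = 2.9e-04). Its second probe set differed by -0.72 and did not pass, and its lowest adult array was adult sham 4. Syn2, a synapsin, rose by 0.44 log2 (adjusted p = 0.00635). Of 26 neuropeptide and peptide-processing genes Cck and Pam rose and Tac1 fell. The call of Pam was lost without any 1 of 6 arrays (adjusted p up to 0.0814). Tac1, which codes for substance P, fell by 0.56 (SE 0.18, adjusted p = 0.0367), a call lost without any 1 of 6 arrays (adjusted p up to 0.103), and Cck rose by 0.35 log2 (adjusted p = 0.017; 0.0529 without neonate sham 5). Of 18 receptor genes Adora1, an adenosine receptor, rose by 0.54 log2 (adjusted p = 0.0181), Ntsr2 rose, and Sstr1, a somatostatin receptor, fell by 0.70 (adjusted p = 0.00781). Adora1 did not pass without both arrays numbered 3, and 4 receptor genes fell without neonate sham 4. The opioid receptor genes Oprm1 and Oprd1 did not pass the filter.

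Genes switched on by neuronal activity were lower in adults where they passed. Of 34 genes of calcium signalling and activity 6 fell and 3 rose. The falls went to 3 without adult sham 4 and to 11 with the replicate number as a block. Egr1, an immediate early gene, ran from 9.59 to 10.45 log2 in neonates and from 8.55 to 9.61 in adults and fell by 0.72 (SE 0.20, adjusted p = 0.0168; 0.0529 without adult sham 4). Dusp6, a phosphatase induced by the ERK pathway, fell by 0.55 (adjusted p = 0.0118). The largest fall of this list was Egr2, by 1.41, which is also on the Schwann cell list and is given there. Fos differed by -0.55 log2 (adjusted p = 0.109). The 3 rises were calcium-binding or calcium-releasing proteins. Ncald, neurocalcin delta, rose by 0.57 log2 (adjusted p = 5.6e-05), Itpr1, a calcium release channel, by 0.59 log2 (adjusted p = 0.00718), and Pvalb, parvalbumin, by 0.56 log2 (adjusted p = 0.0145; not passed without both arrays numbered 3). Of 11 transcription factors of dorsal horn neurons and segments, Pbx3 rose by 0.42 log2 (adjusted p = 9.0e-04), and Ebf1 fell by 0.45 (adjusted p = 0.0449) with its call lost without any 1 of 9 arrays.

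Many matrix genes fell. Collagens and laminins form the basement membrane around vessels and the meninges. Of 57 genes of the list on the array 40 were tested, and 18 fell and 2 rose, with a median of -0.44 log2. Without neonate sham 3 the falls numbered 20 and without adult sham 3 they numbered 12; the list mean of neonate sham 3 was 6.99 log2, against 7.47 to 7.92 on the other neonate arrays and 6.78 to 7.52 on the adult arrays. Nid1 and Nid2, the nidogens that link laminin to collagen IV, fell by 0.96 and 1.57 (adjusted p = 6.7e-06 and 4.4e-06). Nid1 ran from 9.90 through 10.08 to 10.34 log2 in neonates and from 8.81 through 9.13 to 9.68 in adults. The laminin chains Lamc1 and Lama4 fell by 1.22 and 1.35 (adjusted p = 1.7e-05 and 1.0e-04), and Col6a1 by 0.99 (adjusted p = 2.1e-05). All of these belong to or border basement membranes. The fibrillar collagens Col1a1 and Col3a1 fell by 0.80 and 1.03 (adjusted p = 0.0473 and 0.0252), and these calls were lost without any 1 of 9 and 5 arrays.

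Genes of the perineuronal net, the matrix around adult neurons, did not rise together. Of 13 tested genes 1 rose and 3 fell. Bcan, brevican, fell by 0.65 from a neonate range of 12.26 to 12.58 to an adult range of 11.61 to 11.94 log2 (SE 0.09, adjusted p = 9.9e-06), while its second probe set differed by 0.03. Nptxr, a receptor of neuronal pentraxins, fell by 0.52 (adjusted p = 0.00191). Acan, aggrecan, the defining protein of the net, differed by 0.23 log2 and did not pass. Hapln2, which binds hyaluronan at nodes, rose by 1.23 log2 (adjusted p = 0.0274), a call lost without any 1 of 6 arrays (adjusted p up to 0.0814).

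Endothelial genes changed mainly downward. Of 27 tested genes 7 fell and 2 rose. Slco1a4, an organic anion transporter of the blood-brain barrier, was the exception in size: it ran from 8.09 through 8.31 to 8.64 log2 in neonates and from 9.81 through 10.03 to 10.37 in adults, a rise of 1.76, or 3.40-fold (SE 0.13, adjusted p = 1.2e-09). Slc16a1, the transporter of lactate and ketone bodies, fell by 0.51 from a neonate range of 10.69 to 11.05 to an adult range of 10.11 to 10.50 log2 (SE 0.09, adjusted p = 3.7e-04). Apln, the ligand apelin, fell by 0.53 (adjusted p = 8.9e-04), Kdr, the main receptor of vascular endothelial growth factor, by 0.60 (adjusted p = 0.0174), and Mfsd2a, which carries lipids across the barrier, by 0.47 (adjusted p = 0.0113). Mfsd2a did not pass without both arrays numbered 3. The general endothelial markers Cldn5, Vwf and Eng differed by -0.30, -0.11 and -0.10 log2 and did not pass. Of the mural cell genes, Myh11 and Mylk rose by 0.77 and 0.47 log2 (adjusted p = 0.00762 and 0.00578), and Abcc9 fell by 0.81 (adjusted p = 0.0107).

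Transcripts of red blood cells were higher in adults. Alas2, which begins haem synthesis in red cell precursors, ran from 3.77 through 4.79 to 5.26 log2 in neonates and from 7.74 through 8.78 to 10.02 in adults, a rise of 4.18, or 18.2-fold (SE 0.54, adjusted p = 5.2e-06). The haemoglobin genes Hba-a3 and Hbb rose by 2.82 and 2.20 log2 (adjusted p = 3.2e-06 and 2.7e-06); haemoglobin genes have close copies, so these names are uncertain. Pf4, a chemokine of platelets, rose by 2.52 log2 (SE 0.52, adjusted p = 0.00123), with adult arrays spread from 4.43 to 8.10. In all 4 of these genes the ages did not overlap. The mean over the 5 tested red cell and platelet genes ran from 7.33 to 7.59 log2 in neonates and from 8.65 to 10.16 in adults, with adult sham 2 and 5 highest. How much blood each sample held was not measured, and its part in the differences of other genes was not tested.

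**Figure D5:**
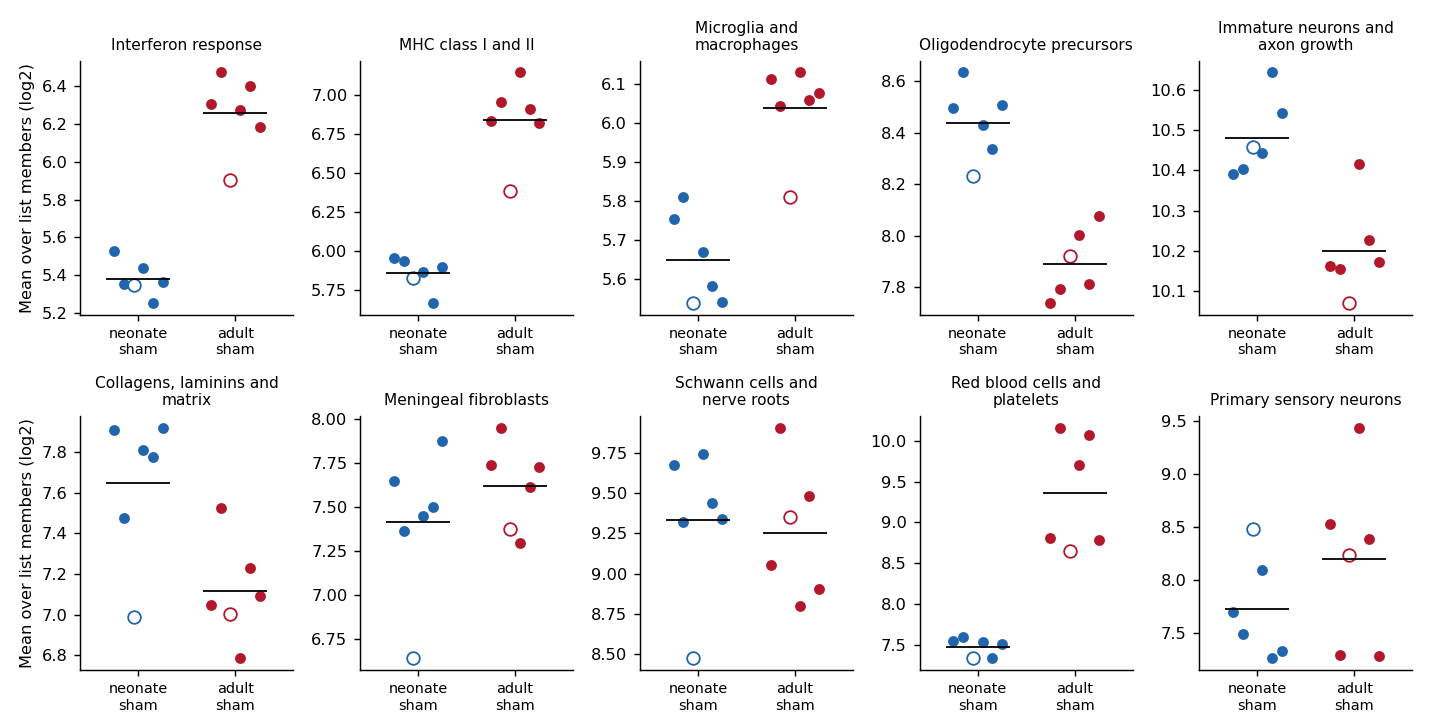
Each point is an array and each panel the mean over the tested members of a list (log2, vertical axis, a scale of its own in each panel); open circles mark the arrays numbered 3 and lines the means of 6 arrays. Interferon, MHC, precursor and red cell panels show no overlap between ages, and neonate sham 3 lies lowest among neonates in the collagen, meningeal and Schwann cell panels.

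Meningeal genes changed in both directions. Of 18 tested genes 5 rose and 2 fell, with a median of -0.03 log2. Besides Aldh1a1, Ptgds, the prostaglandin D synthase of meninges and glia, rose by 2.23 log2 (SE 0.43, adjusted p = 5.8e-04) from a neonate range of 8.27 to 11.55 to an adult range of 11.47 to 12.27, with overlap. Ogn, osteoglycin, rose by 1.02 log2 (adjusted p = 0.0021). Averaged over its members, the list stood at 6.64 log2 on neonate sham 3, 7.37 to 7.87 on the other neonate arrays and 7.30 to 7.95 in adults, and the count of rises was 5 also without that array. The 2 falls, Col1a1 and Col3a1, became 3 without neonate sham 3, 1 without adult sham 1 or 6 or neonate sham 2 or 4, and 0 without adult sham 3 or 4 or neonate sham 1, 5 or 6. How much meninges each sample carried was not measured separately, and its part in these differences was not tested.

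Markers of neighbouring tissue were checked by list. Of 9 tested genes of primary sensory neurons and 5 of motor neurons 0 passed in limma, with 4 and 0 at an unadjusted p below 0.05. All 5 motor neuron genes were higher in adults, by 0.63 to 1.05 log2 (median 0.84). Of the 9 sensory genes 6 were higher in adults (median 0.37). In the sensory list 1 gene rose without neonate sham 3 or 4, and 1 fell without adult sham 4. With the replicate number as a block 3 sensory genes rose and 1 fell. Calca, the peptide CGRP of sensory fibres and motor neurons, ran from 2.31 to 5.05 log2 in neonates and from 2.14 to 7.68 in adults, a difference of 1.90 (SE 1.00, adjusted p = 0.216). Chat, the enzyme of cholinergic neurons, ran from 3.42 to 5.27 and from 3.48 to 7.28 log2 (adjusted p = 0.417). The motor neuron list mean was highest on adult sham 4 at 8.43 log2 and on neonate sham 3 at 6.61, against 4.29 to 6.21 on the other adult arrays and 4.29 to 5.58 on the other neonate arrays. The sensory list mean was highest on the same arrays, at 9.44 log2 on adult sham 4 and 8.48 on neonate sham 3. On the other arrays it was 7.28 to 8.53 in adults and 7.26 to 8.10 in neonates. Of 10 Schwann cell and nerve root genes S100a4 rose by 1.33 log2 (adjusted p = 3.4e-04) and Egr2 fell by 1.41 (adjusted p = 0.00212). Egr2 is also counted in the list of calcium signalling and activity genes. Without neonate sham 3, S100a4 rose by 1.27 log2 (adjusted p = 0.00117) and Egr2 fell by 1.73 (adjusted p = 2.6e-05). Tnnc2, a troponin of fast skeletal muscle, rose by 2.82 log2 from a neonate range of 4.05 to 5.69 to an adult range of 7.00 to 7.84 (SE 0.31, adjusted p = 5.8e-07), and Pvalb, also on the muscle list, rose as given above. Myh1, a myosin of fast muscle fibres, was bright at both ages by its 5 tested probe sets, and the brightest differed by 0.18 log2 (11.20 log2 in adults, 11.02 in neonates, adjusted p = 0.805). Of 30 muscle and bone genes on the array only 3 passed the filter, and Acta1, Ckm, Myh2 and Myh4 were among those that did not. The mean over the 3 tested muscle genes ran from 7.51 to 8.78 log2 in neonates and from 8.99 to 9.65 in adults, without overlap, and the part of muscle RNA in other differences was not tested. Tekt1, a protein of cilia, rose 2.82-fold (adjusted p = 1.8e-04) and was above the filter level on 6 adult and 1 neonate arrays.

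Few genes of energy metabolism passed in sham. Of 65 tested subunits of oxidative phosphorylation 2 fell and 0 rose, with a median of -0.04 log2 and no difference larger than 0.37. Of the 65 differences 23 were above 0. The falls numbered 1 with arrays centred on the median and 5 after a second quantile normalization. With the replicate number as a block 6 fell and 1 rose. In the SNI arrays 12 of the 65 fell with age and 0 rose, with a median of -0.14 log2. Over all 7006 genes 837 fell there. Of 27 genes of glycolysis and lactate handling 1 rose and 3 fell. Ldha, the lactate dehydrogenase subunit that favours lactate production, ran from 10.43 through 10.73 to 10.94 log2 in neonates and from 9.76 through 9.93 to 10.27 in adults, a fall of 0.76 (SE 0.11, adjusted p = 1.8e-05), while Ldhb differed by 0.08 log2. Slc2a3, the neuronal glucose transporter, fell by 0.36 (adjusted p = 0.0101). Lpl, which frees fatty acids from lipoproteins, fell by 1.47 from a neonate range of 5.06 to 6.30 to an adult range of 3.41 to 4.97 log2 (SE 0.27, adjusted p = 3.5e-04).

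Few of the tested genes of growth machinery passed. Of 40 tested ribosomal protein genes 0 passed in limma, and 3 had an unadjusted p below 0.05, with differences from -0.28 to 0.30 log2 and a median of 0.07. Of 49 cell cycle and replication genes on the array 16 passed the filter, 1 rose and 1 fell, and 4 of the 16 differences were above 0. The others were not tested, and among them the proliferation markers Mki67 and Top2a were below the filter level at both ages. Cdk4, a kinase of the G1 phase, fell by 0.57 (adjusted p = 0.0111). Cdc25b, a phosphatase that starts mitosis, rose by 1.11 log2 (adjusted p = 2.8e-04), against the direction of Cdk4. Chromatin genes changed in few members: of 35 tested 5 fell and 1 rose. Hmgn2 and Hmgb3, which loosen chromatin, fell by 0.45 each (adjusted p = 6.6e-05 and 3.8e-04), and H2az1, a histone variant, fell by 0.41 (adjusted p = 4.9e-04). Of 11 genes of radial glia and progenitors, Notch1, the receptor that keeps progenitors undifferentiated, fell by 0.63 (SE 0.10, adjusted p = 6.9e-05), while Vim, vimentin, differed by -0.49 log2 (SE 0.24, adjusted p = 0.169).

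Hormone and trophic genes changed in several members. Of 21 genes that respond to glucocorticoid or thyroid hormone 7 fell and 2 rose. The count of falls was 2 without adult sham 5, and 4 without neonate sham 1 or neonate sham 2. Crym, a protein that binds thyroid hormone, ran from 5.21 through 5.80 to 6.12 log2 in neonates and from 4.13 through 4.53 to 5.00 in adults, a fall of 1.16 (SE 0.15, adjusted p = 5.1e-06). Hsd11b1, which regenerates active glucocorticoid, rose by 1.28 log2 from a neonate range of 6.07 to 6.86 to an adult range of 7.11 to 8.54 (SE 0.20, adjusted p = 6.2e-05). The glucocorticoid-induced genes Fkbp5, Tsc22d3 and Sgk1 differed by -0.34, -0.30 and -0.25 log2 and did not pass.

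Of 23 trophic factors and receptors 5 rose and 1 fell. Cntf, a survival factor that glia make, ran from 6.41 to 7.08 log2 in neonates and from 7.32 to 8.28 in adults and rose by 0.80 (SE 0.18, adjusted p = 0.00285). Il6st, the receptor chain through which this factor signals, rose by 0.38 log2 (adjusted p = 0.00226), and Fgfr2 by 0.44 log2 (adjusted p = 6.2e-04). Fgf13, which acts on sodium channels and microtubules inside neurons, fell by 0.67 (adjusted p = 0.0039). Of 18 genes of the insulin-like growth factors and imprinted loci 2 fell, Grb10 by 0.67 (adjusted p = 0.00358) and Nnat by 0.29 (adjusted p = 0.0259; lost without any 1 of 4 arrays), and Igf2, a growth factor of the fetus and meninges, differed by 0.01 log2 (SE 0.17, adjusted p = 0.968).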

How the data were processed

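Per the labels' protocols, total RNA of ipsilateral dorsal horn was extracted with Trizol, 5 ug of it was turned into biotinylated cRNA, and the array type was the Affymetrix Rat Expression 230A. The deposited values are log2 expression per probe set. The authors made them with GCRMA, per the submitters' processing notes. The release of GCRMA was not given in the sources used here. GCRMA puts dim probe sets near a common floor, so folds that start there depend on its background model. Values were used as deposited, without further transformation.

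Of 15923 probe sets 57 controls were removed. Of the 15866 left, 12783 had 1 gene symbol in the platform annotation, 312 several and 2771 none; 12748 were matched to RefSeq by gene ID. A means model of all 4 groups (24 arrays, 20 residual and 3.81 prior degrees of freedom) was fitted with limma 3.58.1 under R 4.3.3, with tables read by data.table version 1.17.8, adult minus neonate sham was the contrast, and two-sided p-values were adjusted by the Benjamini-Hochberg method over all 9638 probe sets tested. The labels call the arrays biologically independent. A fold given as "at least" sets the mean of the higher group against the filter level where the other group lies wholly below it. The procedure was tested on simulated data. Plots came from Python 3.11.15 with matplotlib 3.10.9.

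The 48 gene lists, the members named and the tests were chosen with earlier results of these data known. Named genes were the 15 largest rises and falls without overlap between arrays, up to 4 members of each list with the smallest p in each direction, index genes, and members of subunit families. Other genes, among them Bst2, Irf7, Psmb8, Psme2, RT1-S3, Csf1r, Kdr, Lama4, Stmn2, Mobp, the genes that differed by injury and those given as not passed or below the filter, were named after their values were seen. Same-numbered adult and neonate arrays deviated together in 5 of 6 cases by the limit used, a correlation of 0.1 (range 0.014 to 0.43), and were not taken as pairs. Precision is limited by having 6 arrays a group.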

Additional observations from a re-analysis of the deposited data

Results flagged for a closer look

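In 23 of 412 combinations of a named gene and a group of 6 arrays, 1 array stood away from the other 5 by more than Dixon's critical value; chance flags about 1 in 20, or 20.6 here. For adult sham 1 it was 15.22 log2 in Mbp. The values of adult sham 3 that stood apart were, in log2, C3 (6.47), Ifitm3 (8.05), Laptm5 (7.14), Scn3a (7.50) and Dpysl4 (5.23). The values of adult sham 4 that stood apart were, in log2, Lpin1 (8.80), Tac1 (9.02), Stx1a (4.64) and Egr2 (2.23). The values of neonate sham 1 that stood apart were, in log2, Glra1 (5.15), Adora1 (6.47) and Glul (11.57). For neonate sham 2 it was 4.79 log2 in RT1-Da. The values of neonate sham 3 that stood apart were, in log2, Smim5 (3.60), Lyz2 (7.73), Ndrg1 (10.66), Cntf (6.41), Vim (8.95) and Egr2 (3.06). The values of neonate sham 4 that stood apart were, in log2, Itpr1 (5.71) and Cacna1b (8.41). For neonate sham 6 it was 2.76 log2 in Thrsp.

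In 4 genes that rose with age in sham the age difference was larger after SNI by the interaction test in limma, with all 4 rising in both. Plac8 differed by 1.34 log2 in sham and 3.52 after SNI, a gap of 2.19 (SE 0.43, adjusted p = 0.0178). Plek, a protein kinase C substrate of blood and myeloid cells, differed by 0.62 and 1.73 log2, a gap of 1.12 (SE 0.21, adjusted p = 0.0144). Tmem176a differed by 0.50 and 1.28 log2, a gap of 0.78 (SE 0.16, adjusted p = 0.0309), and Cd53, a tetraspanin of leukocytes and microglia, by 0.41 and 1.51 log2, a gap of 1.10 (SE 0.20, adjusted p = 0.00649).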

How the results depend on the processing

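Of the 206 named genes 185 passed, and under the alternative settings tried none of these changed direction. Of the 21 that did not pass, 7 passed under at least 1 setting, and none passed in the opposite direction. Of the 185 that passed, 29 lost the call without some 1 array. Under the other planned settings 100 lost it, 27 of them under a setting other than a test against a 1.2-fold change. That test left 395 probe sets (232 higher, 163 lower), 171 genes higher and 121 lower, 134 and 95 called the same way after SNI, and 11 with a different age effect. With the filter at the 60th percentile 35 genes were at least 2-fold lower and 5 differed in age effect. With the replicate number as a block, 2468 probe sets passed (1091 higher, 1377 lower), 975 genes were lower and 740 lower also after SNI. In that fit 3 of 9 sensory neuron genes rose and 1 fell, 4 of 10 GABA and glycine receptor genes fell, and 4 of 25 potassium channel genes rose. In the same fit 10 of 24 glutamate receptor and scaffold genes and 11 of 34 calcium signalling and activity genes fell. Among adult arrays 4 of 6 correlated best with the neonate array of their own number, which the labels do not explain. Leaving out 1 array, 1249 to 1608 probe sets passed (587 to 758 higher, 638 to 850 lower), with 436 to 576 genes higher and 457 to 600 lower, 87 to 105 and 51 to 71 of them at least 2-fold, 371 to 432 and 380 to 462 called the same way after SNI, and 16 to 20 with a different age effect. Quantile normalization and centring moved the share of calls that were higher from 46.0% to 52.4% and 49.7%. Genes near the floor, such as Bst2, Irf7 and Tyrobp, are limited by signal over background. Leaving out both arrays numbered 3 was chosen after seeing the data and left 1016 genes called, 946 of them shared with the 1153.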
